A study of Homo sapiens with 2 samples.

Results

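The 10 genes described here encode receptors for retinoic acid and proteins that carry it, make it, or make and remove its precursors. The genes are RARA, RARB, RARG, RXRA, RXRB, CRABP2, ALDH1A1, ALDH1A3, DHRS3 and DHRS9. They were taken by name, as every probe set annotated to exactly 1 of these genes, from 19775 genes measured. Together they have 26 probe sets. The genes were chosen with their values in this experiment known, so their levels and ratios below are a description and support nothing by themselves. The cells were HT-29, an established line from a human colorectal adenocarcinoma. One culture was transfected with a small interfering RNA (siRNA) against firefly luciferase (siLuc), which these cells do not carry, and served for comparison. In the other culture the siRNA was directed at IFITM1 (siIFITM1), which encodes an interferon-induced membrane protein, and RNA from both was read after 72 h on 1 array each. The siRNA sequences are not given in the sources used here, and 1 line and 1 siRNA per target limit both groups as models. With 1 array per siRNA no difference has a replicate check, and no p-value is given.

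Retinoic acid is made from vitamin A in 2 steps. Retinol is first oxidised to retinal by retinol dehydrogenases, a reversible step, and retinal is then oxidised to retinoic acid by aldehyde dehydrogenases. CRABP2 carries retinoic acid to the nucleus, where a retinoic acid receptor (RAR) paired with a retinoid X receptor (RXR) binds DNA and switches genes on when the ligand is present. In the intestinal lining retinoic acid is known for its part in epithelial differentiation and in the education of gut immune cells.

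The classical binding site of an RAR and RXR pair is a direct repeat of a short half-site with a spacer of 5 bases. RARB is the textbook example of a gene under such a repeat. The start-site windows of the members (RefSeq, GRCh38.p14, 250 bases before to 50 after a start) were searched on both strands for a pair of half-sites, each AGGTCA or AGTTCA or GGGTCA or GGTTCA, spaced by 5 or by 2 bases. All 10 members had at least 1 window, and there were 22 windows in all. Half-sites stand in capitals in the windows printed here, and a half-site read on the other strand appears as its reverse complement. The first window shows RARB, at chr3:25428013-25428312 on the plus strand, because it holds the repeat.
RARB: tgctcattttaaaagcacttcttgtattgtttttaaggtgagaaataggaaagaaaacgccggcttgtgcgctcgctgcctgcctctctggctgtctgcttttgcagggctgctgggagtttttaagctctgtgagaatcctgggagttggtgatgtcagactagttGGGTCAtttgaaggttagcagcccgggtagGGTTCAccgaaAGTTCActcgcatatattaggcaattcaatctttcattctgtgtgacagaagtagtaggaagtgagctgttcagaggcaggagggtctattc
The other windows show the genes with the lowest and the highest ratio among the members. They are RARG at chr12:53232160-53232459 on the minus strand, which is its only window, and the 1 of 4 DHRS9 windows that holds half-sites, at chr2:169080857-169081156 on the plus strand.
RARG: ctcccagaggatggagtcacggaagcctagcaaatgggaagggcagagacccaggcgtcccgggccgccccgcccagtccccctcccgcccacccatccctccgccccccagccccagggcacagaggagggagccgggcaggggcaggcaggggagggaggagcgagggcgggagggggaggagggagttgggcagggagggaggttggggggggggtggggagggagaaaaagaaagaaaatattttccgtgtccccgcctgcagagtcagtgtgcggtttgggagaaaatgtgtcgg
DHRS9: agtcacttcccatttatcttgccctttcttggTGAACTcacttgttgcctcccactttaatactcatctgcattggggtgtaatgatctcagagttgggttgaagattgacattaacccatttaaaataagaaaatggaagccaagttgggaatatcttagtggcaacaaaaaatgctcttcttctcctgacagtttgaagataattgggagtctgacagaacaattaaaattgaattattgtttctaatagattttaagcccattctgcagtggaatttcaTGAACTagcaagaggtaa
The RARB window holds the repeat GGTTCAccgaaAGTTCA, whose first base lies 53 bases before the start. It was the only one of the 22 member windows with a repeat spaced by 5 bases, and 0 of the 22 had one spaced by 2. Over all 35116 windows, 0.0883% held the first kind and 0.0399% the second. At least 1 half-site was found in 9 of the 22 member windows, against 38.6% of all windows. The half-sites searched for include both of those in the RARB repeat, a textbook case. That match was therefore foreseeable, and no enrichment is read from it. A match is a description of letters and does not show binding.

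The deposited signals of both arrays are on a common scale, with a trimmed mean of 500.1 each. Their like overall level is therefore no finding. The 18 hybridisation control probe sets, which read RNA added in fixed amounts, had log2 ratios of siIFITM1 over siLuc from -0.13 to 0.05. The targeted gene, IFITM1, went from a signal of 640 to 237, or 37.1% of the siLuc value, at a probe set with an _s_at ending, which stands for probes that match more than 1 transcript. Of 10 markers of intestinal epithelium 9 were above the filter described next, with a summed signal over all 10 of 178657 and 181772, and CDX2 was below it on both arrays. Of 6 leukocyte markers 3 passed, among them LYZ, a lysozyme gene that intestinal epithelium can also express. PTPRC, which defines leukocytes, was below the filter (13.7 and 49.3). CD14, a monocyte marker, passed at 232 and 185, and ITGAM at 85.3 and 69.4. The summed signal of the 5 measured leukocyte markers was 24362 and 20958, of which LYZ gave 23964 and 20614, and the 4 others summed to 398 and 344. Of 8 markers of fibroblasts and endothelium 3 passed, all dim, and the sum was 649 and 528. Those that passed were COL1A1 (323 and 230), PECAM1 (150 and 126) and DCN (74.9 and 52.7). PDGFRB, of pericytes and fibroblasts, was below the filter (6.02 and 5.44). The part of other cell types in the results was not tested.

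A gene was represented by its probe set with the highest mean log2 signal, and the filter kept genes for which this mean reached the median over all probe sets, a signal of 57.4. Genes that reached a signal of 393, the 75th percentile, are called brighter and the rest of those kept dimmer. All 10 members passed, RARB only just (mean signal 59.8), and the other 9 were brighter genes. Of the 26 probe sets 18 passed, 12 of them brighter, and 8 did not. As a measure of scatter, log2 ratios of probe sets that read one gene differed with an SD of 0.19 (brighter) and 0.50 (dimmer) over the whole array. Signals of different probe sets depend on how well each binds, so no level is compared between genes. In 6 members the log2 ratio was above 0 and in 4 below, with a median of 0.05, against 47.4% above 0 and a median of -0.02 over the 12225 genes that passed. RARG was 2-fold lower and no member was 2-fold higher. The shares over all genes that passed were 2.01% lower and 1.01% higher, and over the 7793 brighter genes 0.0898% lower and 0.18% higher. Since the members were chosen on this contrast, nothing is read from that count.

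**Figure D1:**
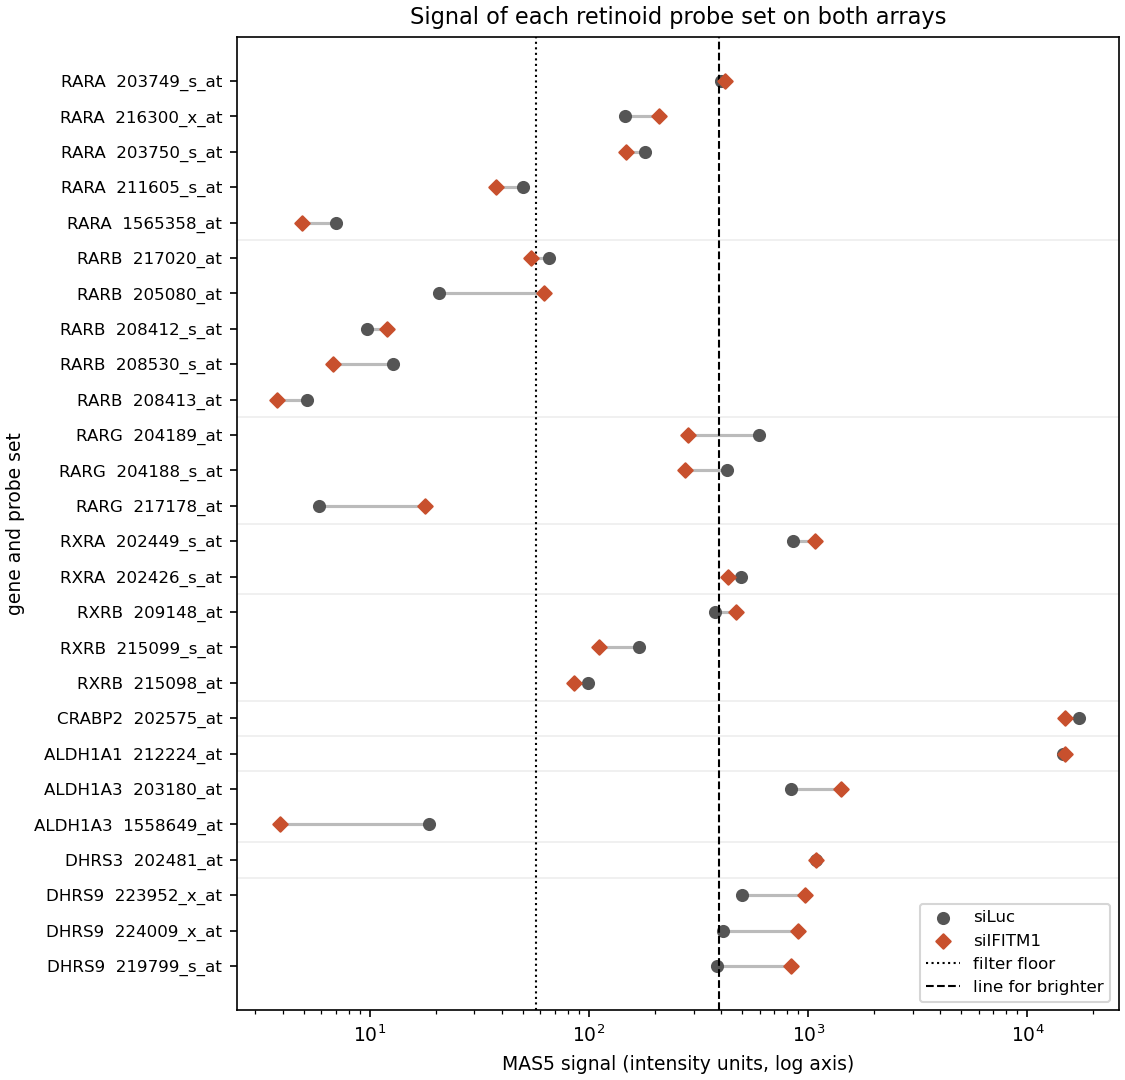
Signal of each of the 26 probe sets (horizontal log axis, MAS5 intensity units) on the siLuc array (circles) and the siIFITM1 array (diamonds), grouped by gene. The dotted line is the filter floor of 57.4 and the dashed line the 393 above which a mean signal is called brighter; all 3 DHRS9 probe sets shift to the right and the RARG probe sets above the floor shift to the left.

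Among the receptors, RARG was lower and the others differed less. RARG encodes the gamma form of the retinoic acid receptor, best known from skin and other lining epithelia. Its signal at the probe set that represents the gene (204189_at) was 595 with siLuc against 283 with siIFITM1. The second value is 47.5% of the first (log2 ratio -1.07). A second probe set, 204188_s_at, went from 426 to 275, a log2 ratio of -0.63. Each of these probe sets was lower with siIFITM1 than with siLuc. The second probe set is a dimmer one and the first a brighter one. Their ratios differed by less than the SD of 0.50 for dimmer probe sets, but by more than the 0.19 for brighter ones. The third probe set, 217178_at, went the other way from 5.86 to 17.9, with both signals far below the filter floor. Of the 7793 brighter genes, 5 had a ratio as low as that of RARG, RARG included. Since the members were chosen with their ratios known, this rank and those of DHRS9 and ALDH1A3 below are descriptions only.

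RARA encodes the alpha form, the most widely expressed of the 3. Its representative probe set read 399 and 416, a log2 ratio of 0.06, which is within the SD between brighter probe sets of one gene. A second, 216300_x_at, went from 145 to 208 (log2 ratio 0.52), and the third, 203750_s_at, from 179 to 148 (log2 ratio -0.28). The 3 probe sets past the filter thus gave no common direction, and the 2 below it read 49.9 and 37.7 in one case and 6.97 and 4.89 in the other.

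RARB encodes the beta form, a receptor and itself a target of retinoic acid, which many colorectal tumours silence. The 1 probe set of RARB that passed the filter read 66.0 with siLuc and 54.2 with siIFITM1, the latter below the floor of 57.4. Its log2 ratio of -0.28 was smaller than the SD of 0.50 found for dimmer probe sets that read one gene. The other 4 probe sets did not pass, and their siLuc signals lay between 5.17 and 20.6. One of them, 205080_at, read 20.6 and 62.5, the latter just above the floor, opposite in direction to the first. RARB was therefore near the floor on both arrays, and no direction can be given for it.

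The RXR genes encode the partner that RAR needs on DNA and that also pairs with the vitamin D, thyroid and fatty acid receptors. RXRA was represented by a probe set that went from 855 to 1073, a log2 ratio of 0.33. The other, also brighter, went from 496 to 433, a log2 ratio of -0.20. RXRB was represented by a probe set at 375 and 470, a log2 ratio of 0.33. Its 2 dimmer probe sets were lower, from 169 to 111 (log2 ratio -0.60) and from 99.2 to 85.5 (log2 ratio -0.22). Each RXR gene thus had probe sets on both sides of 0, and neither has a settled direction. RXRG, the remaining RXR gene, was below the filter at 28.9 and 23.3.

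**Figure D2:**
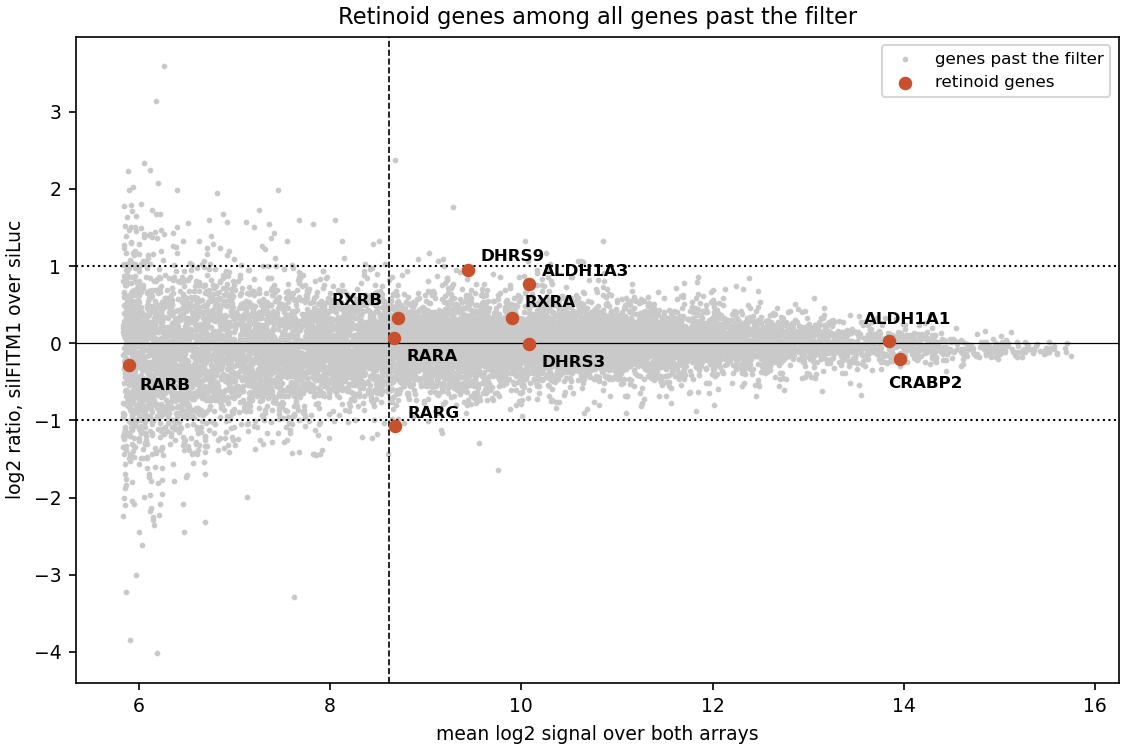
Log2 ratio of siIFITM1 over siLuc (vertical axis) against mean log2 signal of both arrays (horizontal axis) for the 12225 genes that passed the filter (grey), with the 10 retinoid genes in colour. Dotted lines mark a 2-fold difference and the dashed line the start of the brighter genes; RARG lies at -1.07, DHRS9 at 0.95 and ALDH1A3 at 0.77.

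The carrier CRABP2 gave a strong signal on both arrays, 17132 with siLuc and 14877 with siIFITM1. Its log2 ratio of -0.20 came from a single probe set and was close to the SD of 0.19 between brighter probe sets of one gene. Of the 3 other carriers above the filter, FABP5 and RBP4 lay near 0 and STRA6 was lower at its representative probe set. FABP5, a fatty acid carrier that can also bind retinoic acid, read 4537 and 4482 (log2 ratio -0.02), and RBP4, the retinol carrier of plasma, 454 and 459 (log2 ratio 0.02). STRA6, the membrane receptor that takes up retinol from RBP4 and is also induced by retinoic acid, read 185 and 109 (log2 ratio -0.77) at one dimmer probe set. At another it read 58.0 and 62.1 (log2 ratio 0.10). STRA6 did not meet the rule for named genes, because these signs differ, and was named after its values were seen. RBP2, RBP5 and RBP7 were below the filter.

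Of the enzymes, DHRS9 and ALDH1A3 were higher with siIFITM1 and DHRS3 and ALDH1A1 were close to level. DHRS9 encodes a dehydrogenase that can oxidise retinol to retinal. Its representative probe set (223952_x_at) read 499 with siLuc and 967 with siIFITM1, a 1.94-fold difference and a log2 ratio of 0.95, just short of the 2-fold line. The other 2 read 407 and 895 (2.20-fold, log2 ratio 1.14) and 382 and 836 (2.19-fold, log2 ratio 1.13). All 3 DHRS9 probe sets were brighter ones, each was higher with siIFITM1 than with siLuc, and the ratios lay within 0.19 of one another. Each of the 3 carries an _x_at or _s_at ending, the mark of probes that match more than 1 transcript, although the probe table names no gene but DHRS9 for them. The probe sets may read the same transcript sequence and are not replicates. Among the 7793 brighter genes 17 had a ratio at or above that of DHRS9, itself included.

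ALDH1A3 encodes one of the aldehyde dehydrogenases that make retinoic acid from retinal. Its representative probe set went from 830 to 1413, a 1.70-fold difference and a log2 ratio of 0.77. A second probe set, 1558649_at, read 18.6 and 3.87, far below the filter on both arrays, and opposite in direction. Of the brighter genes 58 had a ratio at or above that of ALDH1A3, itself included. ALDH1A1, which encodes a close relative with the same reaction and is widely used as a marker of stem-like tumour cells, read 14517 and 14863, a log2 ratio of 0.03. DHRS3, which reduces retinal back to retinol and is induced by retinoic acid, read 1089 and 1084, a log2 ratio of -0.01. Both rested on 1 probe set each.

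Probe sets of the same gene often disagreed in sign. Of the 5 members with more than 1 probe set past the filter, 2 had all of them on one side of 0: RARG, lower at both, and DHRS9, higher at all 3. Over the whole array 48.4% of 6087 such genes had all probe sets on one side. Among the 18 member probe sets that passed, 9 were higher and 9 lower. Of these 18, 2 were at least 2-fold higher, both of DHRS9, and 1 was at least 2-fold lower, of RARG. Over all 23024 probe sets of 1 gene past the filter, 3.41% were at least 2-fold apart.

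The rest of the pathway was read through 7 lists of receptors, carriers, enzymes of synthesis and storage, enzymes of breakdown, coregulators, known retinoid targets and RXR partners. They hold 93 genes, of which 78 had a probe set naming only them and 57 passed the filter. Outside the 10 members, 47 genes passed, of which 23 were above 0 and 24 below, with a median of -0.02. None of the 47 was 2-fold apart (background 3.03%), and 4 were at least 1.5-fold apart (background 11.5%). Their ratios lay between -0.77 and 0.65. Each list's counts below stand beside 47.4% above 0, 3.03% at least 2-fold apart and a median of -0.02 over all genes that passed.

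Synthesis and storage genes had a median of 0.16, with 10 of 14 above 0 and 0 of 14 at the 2-fold line. Without the 4 members in it, 7 of 10 were above 0 and the median was also 0.16. RDH5, a retinol dehydrogenase best known from the retina, read 111 and 175 (log2 ratio 0.65). AKR1B10, a reductase that turns retinal back into retinol, read 8119 and 9223 (log2 ratio 0.18). RDH12, another retinol dehydrogenase known from the retina, read 68.0 and 57.6 (log2 ratio -0.24). RDH5 and RDH12 were dimmer genes, and the ratio of RDH12 was within the SD of 0.50. Of the other synthesis enzymes, ALDH1A2 was below the filter at 31.1 and 19.3.

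Of the 3 listed enzymes that break down retinoic acid, 2 were measured and neither was above the filter; CYP26C1 has no probe set that names it alone. CYP26A1, a classical target of retinoic acid, read 13.6 and 9.50, below the filter. CYP26B1 read 65.4 and 9.70 at one probe set and 24.2 and 3.25 at the other, and its mean was below the filter at both.

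**Figure D3:**
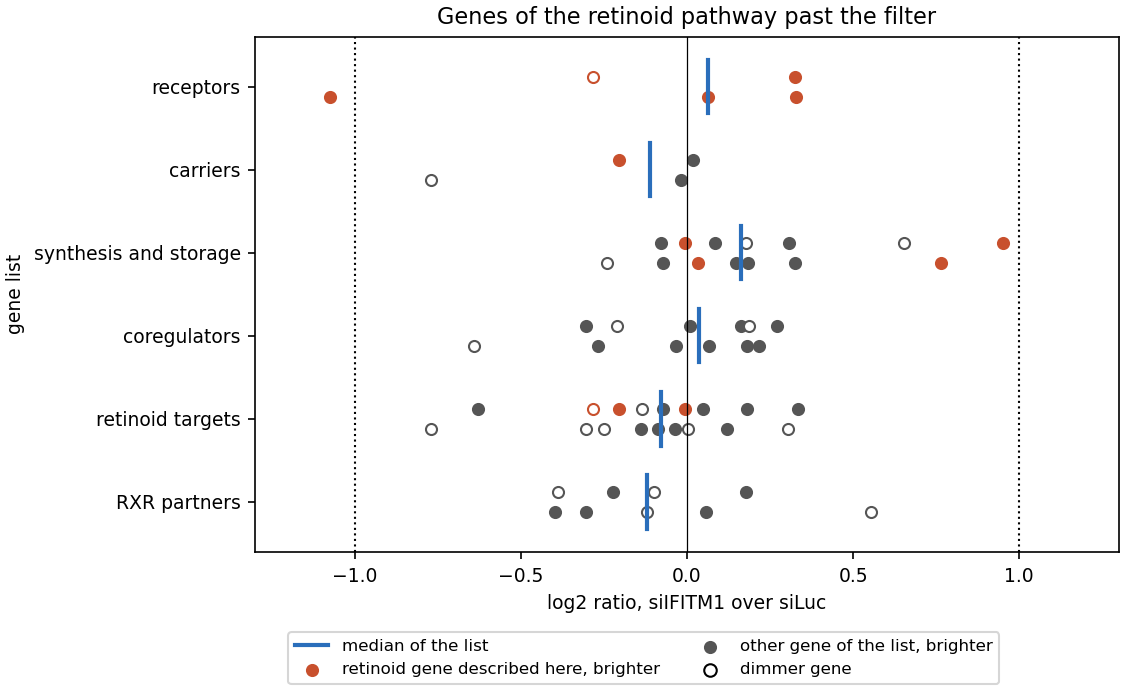
Log2 ratio of siIFITM1 over siLuc (horizontal axis) for genes of 6 retinoid lists that passed the filter (rows); neither measured breakdown enzyme passed. Filled points are brighter genes and open points dimmer ones, colour marks the 10 genes described here, the vertical bar is the list median and dotted lines mark a 2-fold difference; apart from RARG no gene lies beyond the dotted lines.

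Known targets of retinoic acid had a median of -0.08, with 6 of 18 above 0, and 0 of 18 were 2-fold apart. These counts use representative probe sets only. For SMAD3, the 4 probe sets past the filter ran from -1.64 to 0.52, with -0.09 at the representative one. Outside the 3 members among them, 6 of 15 were above 0 and the median was -0.07. TNFAIP2, a gene first found through its induction by tumour necrosis factor, read 658 and 425 (log2 ratio -0.63). BHLHE40, a repressor of the circadian clock, read 484 and 609 (log2 ratio 0.33), and ICAM1, a leukocyte adhesion molecule, 145 and 179 (log2 ratio 0.31). TNFAIP2 was the only one of the 3 whose ratio exceeded 1.5-fold, and it is a brighter gene. Its other probe set, below the filter, read 88.0 and 25.0. The lowest ratio in the list, -0.77, was that of STRA6, given above with its other probe sets. HOXB4, a homeobox gene, read 285 and 286, and PLAAT4, also known as retinoic acid receptor responder 3, read 2234 and 2029 (log2 ratio -0.14).

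Coregulators, the proteins through which RAR and other nuclear receptors silence or switch on genes, had a median of 0.04, with 7 of 12 above 0; it was -0.03 with probe sets averaged and -0.01 without shared probes. KAT2B, a histone acetyltransferase, read 105 and 67.2 (log2 ratio -0.64) and was a dimmer gene. CREBBP, another acetyltransferase, read 1102 and 914 (log2 ratio -0.27), and NCOA1, a coactivator, 343 and 390 (log2 ratio 0.19). NRIP1, a corepressor that is itself induced by retinoic acid, read 1334 and 1510 (log2 ratio 0.18) at its representative probe set. Its other probe set past the filter was lower with siIFITM1 (log2 ratio -0.29), so it has no settled direction. Apart from KAT2B, the coregulators that passed lay between -0.30 (TBL1X, a corepressor subunit) and 0.27 (NCOA2, a coactivator) at their representative probe sets. Probe sets past the filter ran from -0.77 to 0.11 for TBL1X and from -0.25 to 0.27 for NCOA2. Those of CREBBP reached -0.67 and those of NCOA1 0.59.

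Receptors that share RXR as a partner had a median of -0.12 (0.02 with probe sets averaged), with 3 of 9 above 0 and 0 of 9 at the 2-fold line. NR1H3, the liver X receptor alpha gene, read 989 and 750 (log2 ratio -0.40). NR4A2, an orphan receptor that can pair with RXR, read 326 and 249 (log2 ratio -0.39) and was a dimmer gene. All 3 of its probe sets were lower, with log2 ratios from -1.09 to -0.29. PPARG, the fatty acid receptor abundant in colon epithelium, read 1871 and 2117 (log2 ratio 0.18). HOXB4, PLAAT4, SMAD3, NRIP1, TBL1X, NCOA2, RXRG, ALDH1A2 and the carriers below the filter were named outside the rule, after their values were seen.

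The ratios of RARG and DHRS9 moved little with the scaling of the arrays. Under median centring, quantile normalization and removal of a loess trend, the log2 ratio of RARG lay between -1.05 and -1.04 and that of DHRS9 between 0.96 and 0.99. When all probe sets of a gene were averaged, dim ones included, RARG was at -0.03, ALDH1A3 at -0.75, RXRB at -0.16 and DHRS9 at 1.07. Averaging put the sign of ALDH1A3, RXRB and RARA (-0.12) opposite to that of the representative probe set. DHRS9 could not change sign in this way, because all 3 of its probe sets were higher. Without shared probes it has no probe set, so that setting could not check it.

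**Figure D4:**
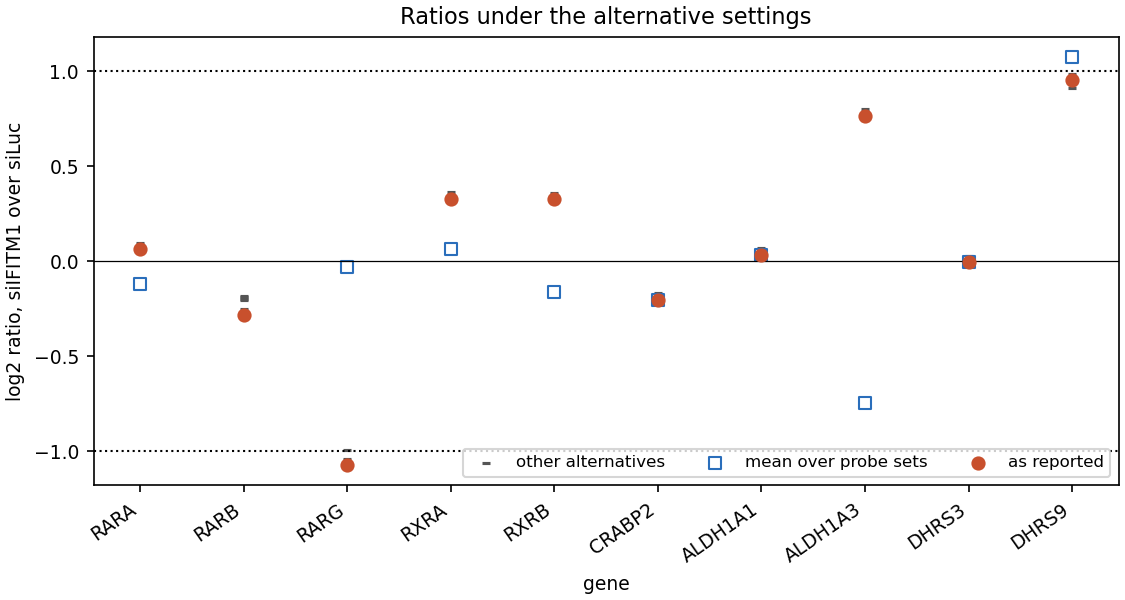
Log2 ratio of siIFITM1 over siLuc (vertical axis) for each retinoid gene as reported (filled circles), with all its probe sets averaged (open squares) and under the other alternatives (bars); values that fail the filter are not drawn. RARG moves from -1.07 to -0.03 and ALDH1A3 from 0.77 to -0.75 when dim probe sets enter the average, while DHRS9 moves from 0.95 to 1.07.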

How the data were processed

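Total RNA of HT-29 cells was amplified to biotin-labelled cRNA and read on 1 single-colour array per siRNA, per the labels' protocols. The deposited values are intensities, MAS5 signals on a linear scale, per the submitters' processing notes. No version of MAS5 is recorded in those notes. On both arrays the mean after trimming 2% at each end was 500.1, a common scale. The number of arrays limits the precision, and detection calls were not used here.

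Of 54613 probe sets that are not controls, 41091 had exactly 1 gene in the probe table, 1801 had several and 11721 had none. Gene symbols were brought up to date through Entrez identifiers in a RefSeq table of GRCh38.p14, which matched 41037 (99.9%). Signals were taken to log2 with no further scaling. The comparison was described by size, with no test. The rule for named genes took the 10 members, IFITM1 and, per list, up to 3 other genes with the largest absolute ratio whose probe sets past the filter shared 1 sign. Members and lists were chosen with earlier results of these data known. Alternatives were 3 other scalings, a pseudocount of 32, signals raised to the floor, 2 other filters, 2 other choices of probe set, and lines at 1.5-fold and 3-fold. The calculation was tested on simulated arrays. Software was Python 3.11.15, statsmodels 0.14.6, scipy 1.17.1, pandas 2.3.3, numpy 2.4.6 and, for figures, matplotlib 3.10.9.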

Additional observations from a re-analysis of the deposited data

How the results depend on the processing

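The count of members at least 2-fold apart was 1 (RARG), and 0 with a pseudocount of 32, where RARG was at -0.99, 3 at a 1.5-fold line (RARG, ALDH1A3 and DHRS9) and 0 at a 3-fold line. With probe sets averaged the count was again 1, but the gene was DHRS9. The median of the receptor list was 0.06, and -0.28 without probe sets that carry shared probes, a setting under which RXRA and DHRS9 have no probe set and RARA does not pass the filter. The receptor median was also below 0 with no filter (-0.11) and with probe sets averaged (-0.08). The median of coregulators turned to -0.03 with probe sets averaged and -0.01 without shared probes, and that of RXR partners to 0.02 with probe sets averaged. Of 54 list medians under an alternative, 48 kept their sign. These were all those of the carriers (-0.11 to -0.02), of synthesis and storage (0.06 to 0.20) and of retinoid targets (-0.11 to -0.02), and those of the other 3 lists outside the settings just named. Of 85 single-gene values under an alternative, 81 moved by less than the SD between probe sets of one gene. The other 4 came from averaging probe sets. Many of the 81 could not move: a change of filter leaves a ratio unchanged, as does averaging for a gene with 1 probe set. So does leaving out shared probes where the representative probe set is kept. The 81 are therefore no measure of stability. No paired analysis was possible because each siRNA has 1 array. Dim signals limit RARB, CYP26A1 and CYP26B1, for which no direction is given.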

Other observations

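Genes of the 7 retinoid lists below the filter had scattered ratios. Of 21 such genes, 3 were at least 2-fold higher and 4 at least 2-fold lower, or 33.3%, against 47.4% of all 7550 genes below the filter. Among the RXR partners, THRB, a thyroid hormone receptor gene, read 88.3 and 130 at its representative probe set (log2 ratio 0.55), but its 3 probe sets ran from -1.28 to 0.55. VDR, the vitamin D receptor gene, read 1275 and 1034 (log2 ratio -0.30), with 4 probe sets from -0.75 to 0.36. RDH10, which encodes the retinol dehydrogenase essential for embryonic retinoic acid, read 2041 and 2528 (log2 ratio 0.31), with 3 probe sets past the filter from -0.03 to 0.31. These 3 genes were named after their values were seen, and none has a direction shared by all its probe sets.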
